A study of Homo sapiens with 54 samples.

Results

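USP18 and the genes that attach the ubiquitin-like modifier ISG15 to proteins, or take it off again, were followed by messenger RNA level in A549 cells, an established human lung cancer line. The 9 genes were chosen by symbol: ISG15, UBA7, UBE2L6, HERC5, HERC6, TRIM25, ARIH1, USP18 and USP41, out of 58870 genes listed in the deposited table. RNA was sequenced after 48 h of treatment from cells that stably carried an empty vector or overexpressed USP18 from one, with 3 libraries per group, 18 groups and 54 libraries in all. Each vector was represented by 1 engineered population, so a difference between vectors and a difference between the 2 populations cannot be told apart.

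Within each vector the 9 groups received vehicle (DMSO), CP2 at 2 or 5 µM, CP14 at 1, 2.5 or 5 µM, or CP18 at 1, 2.5 or 5 µM. The series names β-lapachone, but the labels give codes only and tie none of them to a named compound or a structure. The sample labels describe poly(A) capture while the methods text describes ribosomal RNA removal from total RNA, and the table does not settle which was used. Library totals ran from 16673228 to 25609062 counts with a median of 19701303, and 33416 genes had a count in at least 1 library.

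ISG15 is made in response to type I interferon and is joined to target proteins by an enzyme relay: UBA7 activates it, UBE2L6 carries it, and ligases, chiefly HERC5 in human cells, place it on the target. USP18 removes ISG15 from proteins and also binds the interferon receptor chain IFNAR2, where it damps signalling, and most of these genes are themselves raised by interferon. In lung cancer cells USP18 has been studied as a factor that stabilises growth-promoting proteins.

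The A549 label was read against marker genes. Of 5 epithelial markers, 5 passed the expression filter, and their summed level was 11426 ± 137 CPM (counts scaled to a common library size; mean ± SD, n = 3) with vehicle when the vector was empty and 7269 ± 109 when it carried USP18, almost all of it KRT8, the most abundant at 6154 and 3730 CPM, and KRT18 at 5037 and 3448 CPM. EPCAM (log2 difference -2.13) and CDH1 (-1.84) were lower with the USP18 vector as well, while KRT19 was higher (2.62), at 26.8 against 4.35 CPM. Of 4 alveolar type 2 markers only ABCA3 passed, at 52.8 and 41.5 CPM, and SFTPB had 0 counts in every library. Among leukocyte markers CD68 passed, 1 of 3, at 36.9 and 33.1 CPM, while CD3E had 0 counts in every library and PTPRC had at most 7. None of the 3 endothelial markers passed edgeR's expression filter, with at most 10 counts for PECAM1 in any library. Of 4 fibroblast markers 2 passed, COL1A1 being the most abundant at 12.4 and 4.68 CPM.

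On the GRCh38 build the members lie on 7 chromosomes. HERC6 (chr4:88378739-88443097) and HERC5 (chr4:88457119-88506163) are neighbours on the plus strand, 14021 bases apart. USP18 (chr22:18150118-18177397, plus strand) and USP41 (chr22:20363621-20377251, minus strand) are 2186223 bases apart on 1 chromosome. ISG15 lies at chr1:1001138-1014540, UBA7 at chr3:49805209-49813953, UBE2L6 at chr11:57551656-57568284, ARIH1 at chr15:72474330-72602987 and TRIM25 at chr17:56836387-56914080. GENCODE 44 lists 8 of the 9 as protein coding and USP41 as a transcribed unprocessed pseudogene. For USP41, 73.2% of the exonic length overlaps a long noncoding RNA on its own strand, and 375 of its 846 stretches of 75 bases (44.3%) also occur in USP18 transcripts.

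Levels were compared between genes per kilobase of exon. With vehicle in empty-vector cells the order was UBE2L6 at 12.3 ± 0.324 CPM per kilobase, TRIM25 at 9.38 ± 0.276, ARIH1 at 5.81 ± 0.27, USP18 at 2.64 ± 0.0615, ISG15 at 2.48 ± 0.243, HERC6 at 1.74 ± 0.132, HERC5 at 1.61 ± 0.143, UBA7 at 0.0789 ± 0.0303 and USP41 at 0.00231 ± 0.00245. USP18 and ISG15 were within 1 SD of each other, as were HERC6 and HERC5. The lengths are those of all annotated exons merged, from 867 bases for ISG15 to 22878 for ARIH1. Without division by length, ARIH1 (133 CPM) and TRIM25 (116 CPM) were above UBE2L6 (25.4 CPM), itself above ISG15 (2.15 CPM). The E2 was thus well above the modifier, and the E1 UBA7 was read by 5 to 11 counts per vehicle library in empty-vector cells, so changes in UBA7 rest on few reads.

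The overexpressed gene was read first. With vehicle, USP18 stood at 10.6, 10.7 and 11.1 CPM in the 3 empty-vector libraries and at 1302, 1292 and 1328 CPM in the 3 USP18-vector libraries. The lowest USP18-vector library of any group (947 CPM, CP18 at 1 µM) was far above the highest empty-vector library (12.3 CPM, CP14 at 2.5 µM), so all 54 libraries carried the USP18 level their label gives. The log2 difference with vehicle was 6.92 (SE 0.06, adjusted p 7.8e-71 by edgeR), a 121-fold higher level. USP18 took 0.0938 to 0.222% of all counts in USP18-vector libraries and 0.000863 to 0.00122% in the others, and the table does not separate vector-borne from endogenous USP18 reads.

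**Figure D1:**
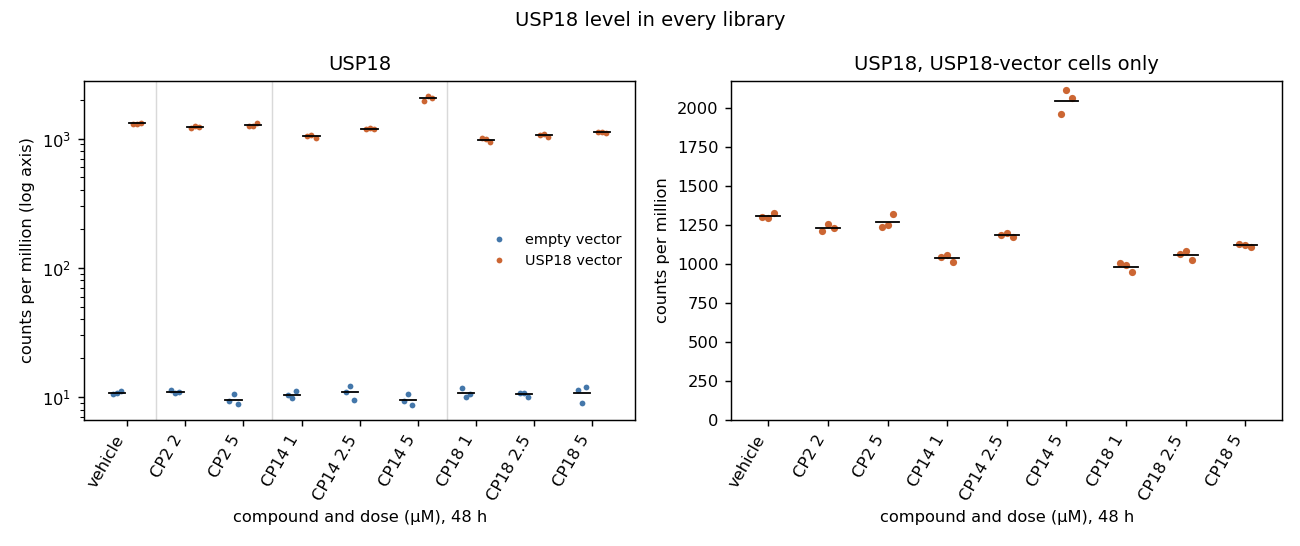
USP18 in every library (points) with group means (bars), by compound and dose after 48 h; CPM on a log axis for both vectors at left, and on a linear axis for USP18-vector cells at right. All 27 USP18-vector libraries lie above all 27 empty-vector libraries, and the 3 libraries at 5 µM CP14 lie highest among USP18-vector cells.

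USP41, the close relative of USP18, had 0 counts in 15 of 27 empty-vector libraries and at most 7.26 counts in the rest, with 4 libraries above 3 counts. In USP18-vector cells with vehicle it had 510.61, 513.15 and 541.62 counts, a mean of 25.4 CPM, which is at least 178-fold higher than the mean CPM (0.143) of a floor of 3 counts per empty-vector vehicle library. Across the 9 USP18-vector groups the mean USP41 count was between 1.63 and 1.95% of the USP18 count. USP41 passed the expression filter through its level in USP18-vector cells. How many of its reads come from USP18 transcripts, with which it shares sequence, was not tested.

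Between vectors with vehicle, 50.9% of the 16836 tested genes passed at an adjusted p under 0.05 and 10.6% also passed an absolute log2 change of 1. Of the 8 members with counts above the floor in both cell types, 3 passed and 1, USP18, also exceeded 1. HERC5, the main human ISG15 ligase, was 7.02, 7.69 and 8.38 CPM in empty-vector libraries and 12.8, 11.7 and 11 CPM in USP18-vector libraries, with no overlap. Its log2 difference was 0.62 (SE 0.1, adjusted p 4.6e-07). TRIM25, a ligase for ubiquitin that can also use ISG15, was 114, 120 and 115 CPM against 93, 97.8 and 94.8 CPM, lower in 3 of 3 USP18-vector libraries by a log2 difference of -0.29 (adjusted p 5e-05). ISG15 itself did not pass, at 2.31, 1.91 and 2.22 CPM against 1.29, 1.41 and 1.77 CPM, although the libraries do not overlap (log2 difference -0.53, 95% interval -1.06 to 0.01, adjusted p 0.099). HERC6 (0.22), ARIH1 (0.08), UBA7 (0.29) and UBE2L6 (0.01, interval -0.14 to 0.16) did not pass either. ARIH1 passed by DESeq2 (adjusted p 0.041), with RLE scaling (0.048), in fits of fewer groups (0.029) and without empty-vector replicate 1 (0.043) or 2 (0.035), and HERC6 without empty-vector replicate 3 (0.041) or USP18-vector replicate 1 (0.033). Here and throughout bulk RNA, fewer cells of a kind and less RNA per cell cannot be told apart, and the labels do not say whether libraries are separate cultures, so p-values measure only the spread between these libraries.

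In empty-vector cells each of 8 treatments was set against the same 3 vehicle libraries, and 3 of 64 member tests passed. CP2 changed 0.541% of tested genes at 2 µM and 11.7% at 5 µM, and by edgeR 0 members passed at either dose, with 1 member at an unadjusted p under 0.05 in each and 0 by DESeq2. CP14 changed 0.154% at 1 µM and 13.2% at 2.5 µM with 0 members by edgeR, against 1 and 2 members at an unadjusted p under 0.05 and 0 by DESeq2. At 5 µM CP14 changed 60.7% of genes, 13.9% by more than 1 on the log2 scale, and 2 of 8 members passed. CP18 changed 0.0119% of genes at 1 µM, where 0 members passed by edgeR, 0 were at an unadjusted p under 0.05 and 0 passed by DESeq2. At 2.5 µM CP18 changed 3.1% of genes with 0 members by edgeR, 2 at an unadjusted p under 0.05 and 1, ARIH1, by DESeq2 (-0.12, adjusted p 0.041), and at 5 µM 12.8% with 1 member. ARIH1 at 2.5 µM CP18 also passed in a fit of 12 libraries (0.03), of the groups compared alone (0.045) and without vehicle replicate 3 (0.019), and TRIM25 at 2.5 µM CP14 passed in a fit of the groups compared alone (0.0083). The shares of all genes depend on the fit: with 1 µM CP18 the 2 genes passing became 35 by DESeq2, 62 with the groups compared alone and 291 with no filter. With 5 µM CP18, where replicate pairs had a chi-square per gene of 4.66, 8.82 and 11.13, 2157 became 1381 in a fit of 12 libraries and 502 with the groups compared alone. Fits of the groups compared alone also took 91 genes to 373 with 2 µM CP2 and 1966 to 1291 with 5 µM CP2. They took 26 to 243 with 1 µM CP14 and 522 to 1114 with 2.5 µM CP18.

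In USP18-vector cells the same 8 treatments, against the 3 USP18-vector vehicle libraries, gave 23 passing member tests of 72, spread over all 9 members. They included the overexpressed USP18 and also USP41 at every dose of CP14 and CP18. At 1 µM CP14 and at 2.5 and 5 µM CP18 no other member passed in the fit of all 54 libraries. USP41 shares sequence with USP18, and how far its calls are separate from those of USP18 was not tested. CP2 changed 0.41% of genes at 2 µM, where 0 members passed by edgeR, 2 were at an unadjusted p under 0.05 and 0 passed by DESeq2, and 18.4% at 5 µM with 1 member. CP14 changed 10.4% of genes at 1 µM with 2 members, 29.5% at 2.5 µM with 6, and 65.7% at 5 µM with 7, of which 3 exceeded 1 on the log2 scale against 17.8% of genes. CP18 changed 11.7% of genes at 1 µM with 3 members, 9.75% at 2.5 µM with 2, and 15.1% at 5 µM with 2. Fits of the groups compared alone added USP18 at 2 µM CP2, USP41, UBE2L6 and HERC5 at 5 µM CP2, HERC5 at 1 µM CP14, UBE2L6 at 2.5 µM CP18 and TRIM25 at 5 µM CP18, with adjusted p from 0.0016 to 0.039. At 5 µM CP14 the members' share is near the share of all genes. The shares of all genes depend on the fit here too. The 69 genes passing with 2 µM CP2 became 209 on 12 libraries and 294 with the groups compared alone. For 2.5 µM CP18, 1641 became 2366 and 2466.

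**Figure D2:**
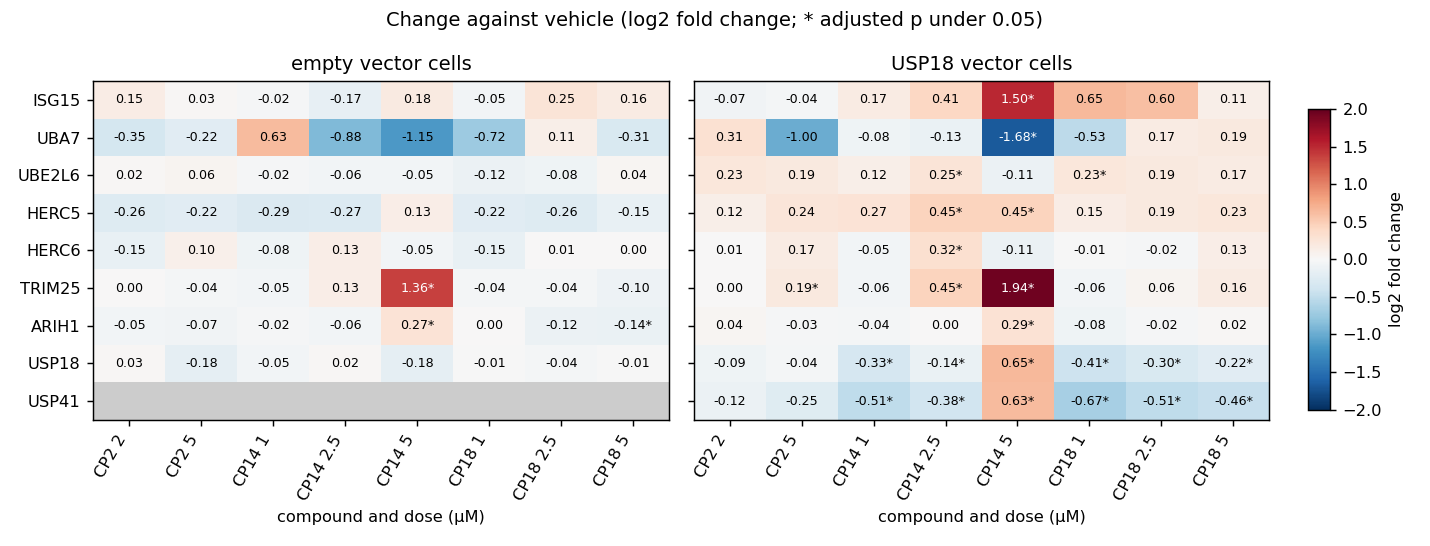
Log2 fold change against vehicle for each member (lines) and each compound and dose in µM (columns), in empty-vector and USP18-vector cells; an asterisk marks an adjusted p under 0.05 and gray marks a gene at or under 3 counts in a group. TRIM25 at 5 µM CP14 is the largest value in either panel, 1.36 and 1.94.

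The direct test of whether a treatment acted differently in the vectors is the interaction, the change in USP18-vector cells minus that in empty-vector cells. It passed for 0.00594% of genes with CP2 at 2 µM, 0.849% with CP2 at 5 µM, 1.8, 7.07 and 26.4% with CP14 at 1, 2.5 and 5 µM, and 3.87, 0.0238 and 0.766% with CP18 at 1, 2.5 and 5 µM. These shares also depend on the fit: on 12 libraries the count of genes went from 303 to 990 with 1 µM CP14, from 651 to 1221 with 1 µM CP18, from 4 to 53 with 2.5 µM CP18 and from 129 to 64 with 5 µM CP18. With 2 and 5 µM CP2 it went from 1 to 24 and from 143 to 194, or to 95 and 364 with no filter. Members passed 8 of 64 such tests: 1, 2 and 3 with CP14 at rising dose and 2 with CP18 at 1 µM. No member passed by edgeR with CP2 at 2 or 5 µM or CP18 at 2.5 or 5 µM (0 by DESeq2 too), against 2, 2, 3 and 4 members at an unadjusted p under 0.05. TRIM25 passed at 5 µM CP2 (adjusted p 0.017) and 5 µM CP18 (0.013) when no filter was applied, and without replicate 1 of empty-vector cells with 5 µM CP18 both TRIM25 (0.023) and ARIH1 (0.028) passed at that dose.

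ISG15, the modifier, was low in all groups. In empty-vector cells its group means ran from 1.9 to 2.53 CPM, neighbours in that order overlapping throughout, and no treatment passed. In USP18-vector cells with 5 µM CP14 it was 4.08, 3.81 and 4.81 CPM (83, 77 and 94 counts) against 1.29, 1.41 and 1.77 CPM (26, 29 and 37 counts) with vehicle. All 3 treated libraries were above every other library in the table for this gene. The log2 change was 1.5 (SE 0.25, adjusted p 5.5e-07), a 2.82-fold rise. In empty-vector cells at that dose ISG15 was 2.51, 2.65 and 2.15 CPM, a range that overlaps its vehicle libraries, with a log2 change of 0.18 (interval -0.33 to 0.69), and the 2 changes differed by 1.32 (interaction, adjusted p 0.0037). At the other 5 doses of CP14 and CP18 in USP18-vector cells the changes lay between 0.11 and 0.65 and did not pass. The largest of these, 0.65 with 1 µM CP18, came from libraries at 2.16, 2.43 and 2.45 CPM, clear of vehicle, and passed in a fit of 12 libraries (adjusted p 0.041 against 0.1). The ISG15 start region, shown because the response of this gene to 5 µM CP14 differed between the vectors, holds the motif GAAA, 2 bases of any kind, GAAA, which was searched on both strands of 35116 RefSeq promoters (GRCh38.p14, 250 bases before to 50 after the start) and found in 3.57% of them.

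ISG15 (chr1:1013247-1013546, plus strand; capitals mark the 2 overlapping matches, -113 and -107 bases from the start): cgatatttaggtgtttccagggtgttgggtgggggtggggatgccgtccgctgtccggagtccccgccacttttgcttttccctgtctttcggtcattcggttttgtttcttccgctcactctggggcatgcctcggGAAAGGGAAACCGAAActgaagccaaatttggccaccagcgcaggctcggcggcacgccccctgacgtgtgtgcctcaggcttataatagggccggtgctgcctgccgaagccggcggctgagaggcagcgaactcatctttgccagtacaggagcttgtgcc

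UBA7, the activating enzyme, had 6, 1 and 1 counts with 5 µM CP14 in USP18-vector cells and 9, 12 and 6 with vehicle, and the groups touch at 6. The log2 change was -1.68 (SE 0.6, adjusted p 0.012), and leaving out replicate 2 or 3 of the treated group or replicate 2 of vehicle moved the adjusted p to 0.08, 0.074 and 0.065, while without treated replicate 1 the change was -2.98. In empty-vector cells the change was -1.15 (interval -2.36 to 0.06), or -2.04 (adjusted p 0.023) without treated replicate 2, and the interaction, -0.53, did not pass. UBE2L6, the conjugating enzyme that carries ISG15, stayed between 22.1 and 34.5 CPM in all 54 libraries. In USP18-vector cells it was 30.3, 33.5 and 27.2 CPM with 2.5 µM CP14 against 26.5, 25.8 and 24.4 CPM with vehicle, higher in 3 of 3 libraries by 0.25 on the log2 scale (adjusted p 0.0057, or 0.11 without treated replicate 2). The interaction, 0.31 (adjusted p 0.057), passed with the stricter filter (0.044), in fits of 12 libraries (0.041) and without treated USP18-vector replicate 3 (0.38, adjusted p 0.015). With 1 µM CP18 it was 28.5, 30.5 and 30.9 CPM, a log2 change of 0.23 (adjusted p 0.027). Leaving out treated replicate 2 or 3 or vehicle replicate 2 or 3 gave adjusted p of 0.089, 0.14, 0.062 and 0.13. The interaction at that dose, 0.35 (adjusted p 0.041), missed the threshold on leaving out any of 11 of its 12 libraries.

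HERC5 was higher in every USP18-vector library than in every empty-vector library, its group means being 6.29 to 8.47 CPM in the latter and 11.8 to 16.2 CPM in the former. In USP18-vector cells it rose from 12.8, 11.7 and 11 CPM to 15.9, 16.2 and 16.4 CPM at 2.5 µM CP14 (log2 change 0.45, adjusted p 0.00011) and 18, 15.6 and 14.7 CPM at 5 µM (0.45, adjusted p 3.2e-05), with no overlap with vehicle. In empty-vector cells it was 6.57, 7.3 and 5.28 CPM at 2.5 µM and 8.89, 7.65 and 8.88 CPM at 5 µM, with changes of -0.27 and 0.13 that did not pass, although the first did without treated replicate 2 (-0.38, adjusted p 0.033). The interaction was 0.72 at 2.5 µM (adjusted p 0.00045) and 0.31 at 5 µM (adjusted p 0.098). At 1 µM CP14 the interaction was 0.56 (adjusted p 0.027), which leaving out any of 7 of its 12 libraries lifted to between 0.057 and 0.13. HERC6, its neighbour and relative, rose at 2.5 µM CP14 in USP18-vector cells, from 10.5, 12.7 and 11.9 CPM to 15.9, 13.5 and 14.6 CPM (log2 change 0.32, adjusted p 0.011), and the adjusted p was 0.094 without treated replicate 1 and 0.097 without vehicle replicate 1. No other treatment of HERC6 passed in either cell type. The HERC5 start region is shown because it holds the same motif, which is not in the HERC6 entry.

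HERC5 (chr4:88456869-88457168, plus strand; capitals mark 3 matches on the minus strand, -125, -119 and -74 bases from the start): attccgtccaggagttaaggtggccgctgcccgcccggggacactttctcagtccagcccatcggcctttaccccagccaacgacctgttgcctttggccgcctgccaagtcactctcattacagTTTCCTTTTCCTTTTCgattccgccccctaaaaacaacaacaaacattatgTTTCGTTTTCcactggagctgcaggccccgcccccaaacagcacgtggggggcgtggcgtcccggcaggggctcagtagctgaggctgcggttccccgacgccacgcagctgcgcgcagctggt

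**Figure D3:**
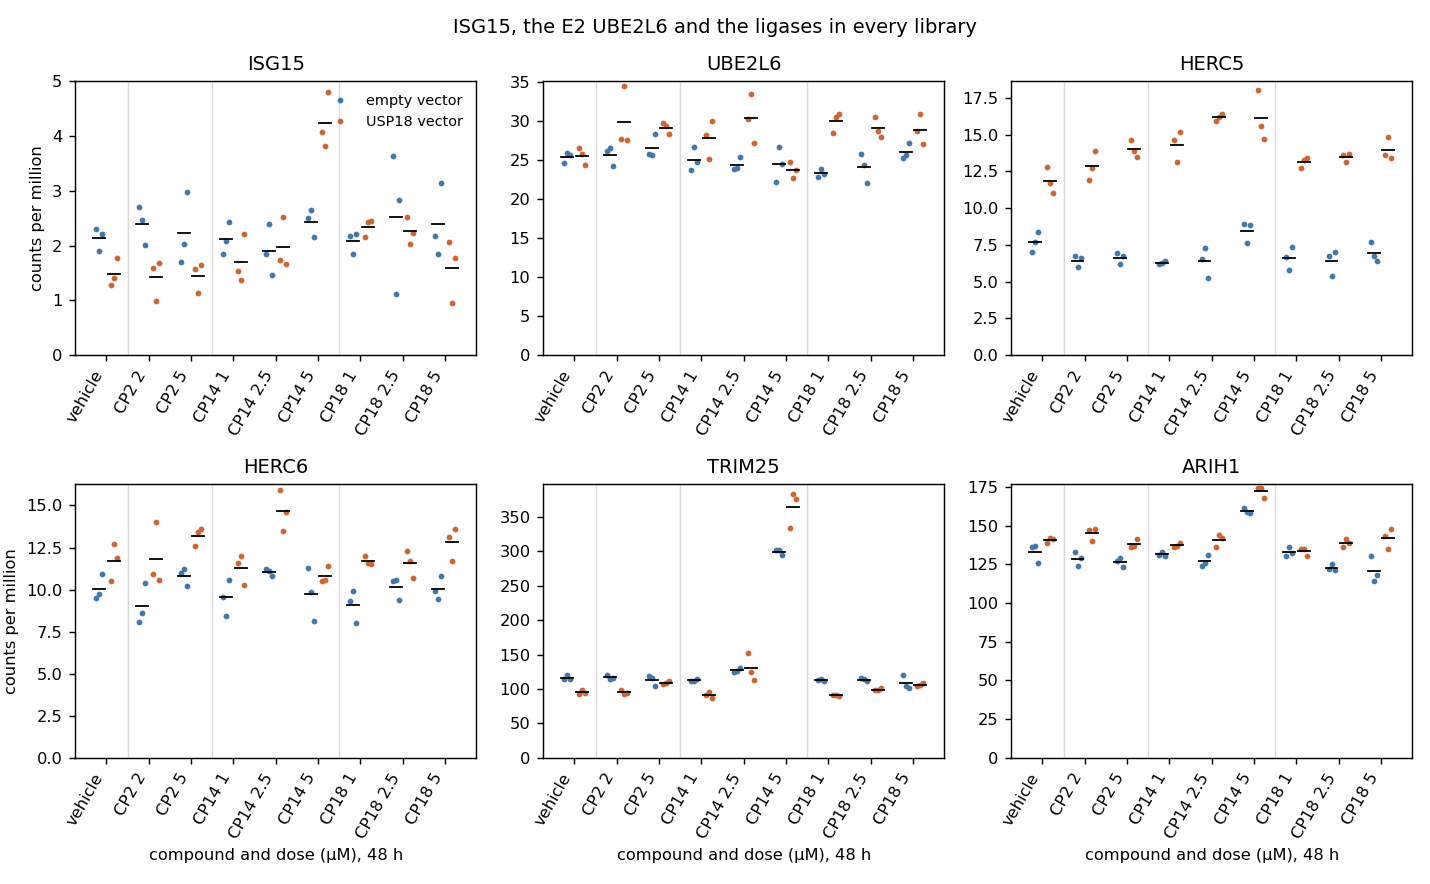
CPM in every library (points) with group means (bars) for ISG15, UBE2L6 and 4 ligases or relatives, by compound and dose in µM after 48 h. TRIM25 at 5 µM CP14 reaches 294 to 383 CPM, and HERC5 in USP18-vector libraries, from 11 to 18 CPM, lies above the empty-vector libraries.

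TRIM25 had the largest log2 change of any member on treatment in either cell type with all libraries in. Leaving out 1 treated library at 5 µM CP14 gave larger ones for UBA7, -2.04 in empty-vector and -2.98 in USP18-vector cells, on few reads. In empty-vector cells TRIM25 went from 114, 120 and 115 CPM with vehicle to 301, 302 and 294 CPM with 5 µM CP14. In USP18-vector cells it went from 93, 97.8 and 94.8 CPM to 334, 383 and 376 CPM. The treated libraries are clear of all others in both cell types. The log2 changes were 1.36 (SE 0.06, adjusted p 6.1e-26) and 1.94 (SE 0.06, adjusted p 5.5e-32), with an interaction of 0.57 (adjusted p 1.5e-07). At 2.5 µM the empty-vector libraries read 125, 126 and 130 CPM (log2 change 0.13, adjusted p 0.15), and the USP18-vector libraries 152, 125 and 113 CPM (0.45, adjusted p 2.7e-08); fitted on the groups compared alone, the adjusted p were 0.0083 and 0.051. The interaction of 0.33 at that dose (adjusted p 0.0084) fell to 0.2 (adjusted p 0.088) without replicate 1 of the treated USP18-vector group, the highest of the 3, and did not pass in a fit of 12 libraries (0.19). In empty-vector cells no 2 neighbouring groups below CP14 at 2.5 µM differed beyond their spread, from 117 CPM (CP2 at 2 µM) down to 109 CPM (CP18 at 5 µM). The change with 5 µM CP18 there, -0.1 (adjusted p 0.31), passed without treated replicate 1 (-0.18, adjusted p 0.045). CP2 at 5 µM in USP18-vector cells raised TRIM25 to 107, 109 and 111 CPM (0.19, adjusted p 0.016), and leaving out treated replicate 3 or vehicle replicate 1 or 3 gave adjusted p of 0.064, 0.072 and 0.052. The TRIM25 start region, shown because of this response, holds no copy of the motif, as is the case for ARIH1, HERC6 and both UBE2L6 entries.

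TRIM25 (chr17:56914000-56914299, minus strand): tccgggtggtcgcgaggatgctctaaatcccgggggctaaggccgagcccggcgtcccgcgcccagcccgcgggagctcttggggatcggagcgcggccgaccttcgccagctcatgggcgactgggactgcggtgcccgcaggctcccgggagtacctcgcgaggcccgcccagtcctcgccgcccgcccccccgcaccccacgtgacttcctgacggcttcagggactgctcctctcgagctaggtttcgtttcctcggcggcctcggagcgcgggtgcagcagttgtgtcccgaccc

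ARIH1, a RING-between-RING ligase that has been assigned ISG15 ligase activity, read 161, 159 and 158 CPM with 5 µM CP14 in empty-vector cells against 136, 137 and 126 CPM with vehicle (log2 change 0.27, adjusted p 7e-09), and 174, 174 and 168 CPM against 139, 142 and 141 CPM in USP18-vector cells (0.29, adjusted p 3.3e-10). Both sets are clear of vehicle, and the interaction, 0.03 (interval -0.08 to 0.13), did not pass. With 5 µM CP18 in empty-vector cells it was lower, at 130, 114 and 118 CPM (-0.14, adjusted p 0.0091), and 1 treated library lay among the vehicle values. That call did not pass without vehicle replicate 1 (adjusted p 0.072), vehicle replicate 2 (0.077) or treated replicate 2 (0.13), nor in fits of 12 libraries (0.1) or of the groups compared alone (0.27).

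USP18 in USP18-vector cells moved in both directions. It was 1965, 2115 and 2062 CPM with 5 µM CP14 against 1302, 1292 and 1328 CPM with vehicle, a log2 rise of 0.65 (SE 0.04, adjusted p 1.8e-23). It was below vehicle in 3 of 3 libraries with 1 µM CP14 (1047, 1055 and 1014 CPM, -0.33, adjusted p 8.8e-09) and with 2.5 µM CP14 (1185, 1197 and 1175 CPM, -0.14, adjusted p 0.0032). CP18 lowered it at every dose, to 1004, 992 and 947 CPM at 1 µM (-0.41, adjusted p 1.7e-11), 1066, 1086 and 1028 CPM at 2.5 µM (-0.3, adjusted p 7e-08) and 1129, 1121 and 1110 CPM at 5 µM (-0.22, adjusted p 1.2e-05). Group means fell in the order CP14 at 5 µM, vehicle, CP2 at 5 µM, CP2 at 2 µM, CP14 at 2.5 µM, CP18 at 5 µM, CP18 at 2.5 µM, CP14 at 1 µM and CP18 at 1 µM. Of neighbours in that order, vehicle and CP2 at 5 µM, CP2 at 5 µM and CP2 at 2 µM, and CP18 at 2.5 µM and CP14 at 1 µM did not differ beyond their spread. With CP2 at 2 µM the libraries read 1210, 1254 and 1230 CPM, all below vehicle, a change of -0.09 that did not pass (adjusted p 0.59) but did in a fit of 12 libraries (0.027) and of the groups compared alone (0.0075). In empty-vector cells USP18 means stayed between 9.54 and 11 CPM, all neighbours overlapping, and no treatment passed. With 5 µM CP14 it was 9.38, 10.5 and 8.77 CPM there, a log2 change of -0.18 (interval -0.34 to -0.02, adjusted p 0.051), against a rise in USP18-vector cells, and the interaction reached 0.83 (adjusted p 2.5e-11). Interactions for USP18 compare changes from vehicle levels of 1307 and 10.8 CPM, and vector-borne reads are not separated from endogenous ones. The empty-vector change passed without treated replicate 2 (-0.25, adjusted p 0.017), with RLE scaling (0.048) and in a fit of 12 libraries (0.042). With 1 µM CP18 the interaction was -0.41 (adjusted p 0.0053), and with 1 µM CP14 it was -0.29 (adjusted p 0.071), which passed by DESeq2 (0.033) and in a fit of 12 libraries (0.015). USP41 followed in the same 6 comparisons, from -0.67 at 1 µM CP18 to 0.63 at 5 µM CP14, and of its 6 calls 4 were lost on leaving out 1 library or another, with adjusted p then between 0.05 and 0.1.

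**Figure D4:**
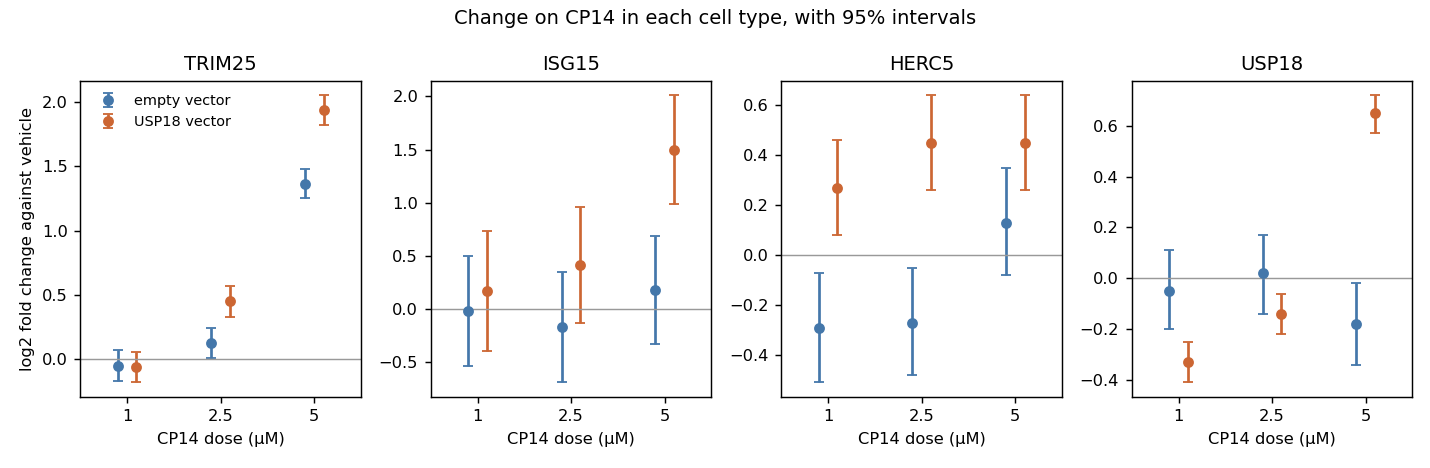
Log2 fold change against vehicle with 95% intervals for TRIM25, ISG15, HERC5 and USP18 at 3 doses of CP14, in empty-vector and USP18-vector cells. At 5 µM the changes in USP18-vector cells are above those in empty-vector cells for TRIM25 (1.94 and 1.36), ISG15 (1.5 and 0.18) and USP18 (0.65 and -0.18).

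The compounds were compared directly at matched doses, in 10 comparisons and 87 member tests, of which 28 passed. Between CP14 and CP18 at 1 µM, 0.00594% of genes passed in empty-vector cells and 0.0713% in USP18-vector cells, and by edgeR 0 members did in either, with 1 at an unadjusted p under 0.05 in each and 0 by DESeq2. The USP18 difference in USP18-vector cells was 0.08 (interval 0 to 0.16). These 1 µM shares depend on the fit. On applying no filter, genes passing went from 1 to 145 in empty-vector and from 12 to 157 in USP18-vector cells. At 2.5 µM the shares were 2.39 and 26.4%, with 0 members in empty-vector cells (1 unadjusted, 0 by DESeq2) and 4 in USP18-vector cells, where CP14 was above CP18 for TRIM25 (0.39, adjusted p 7e-07), USP18 (0.16), HERC6 (0.34) and HERC5 (0.26). Fitted on the groups compared alone, the TRIM25 difference did not pass in USP18-vector cells (0.39, adjusted p 0.071) and did in empty-vector cells (0.16, adjusted p 0.0024), as it did there with no filter (0.17, adjusted p 0.023). HERC5 in USP18-vector cells missed the threshold on leaving out any of the 6 libraries, and HERC6 without CP14 replicate 1 (adjusted p 0.072) or CP18 replicate 3 (0.063). The 403 genes passing at 2.5 µM in empty-vector cells became 935 with the groups compared alone.

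At 5 µM, CP14 minus CP18 passed for 58.7% of genes (12.3% past 1 on the log2 scale) in empty-vector cells with 3 members, and for 65.3% (16.9%) in USP18-vector cells with 9. CP14 minus CP2 passed for 58.5% (12.2%) with 3 members and 65.7% (17.4%) with 8. Calls of HERC5 and HERC6 among these were lost on leaving out some single libraries. Some HERC5 calls were also lost with no filter (adjusted p 0.07 to 0.17) and with the groups compared alone (0.061 to 0.085). The HERC6 call between CP14 and CP18 in USP18-vector cells was lost with no filter (0.058), the stricter filter (0.059) and DESeq2 (0.058), which passed 8 members there. In empty-vector cells USP18 was lower with CP14 than with CP18 without CP14 replicate 2 (-0.24, adjusted p 0.026) or CP18 replicate 2 (-0.28, adjusted p 0.0059). TRIM25 was higher with CP14 than with CP18 by 1.46 in empty-vector and 1.78 in USP18-vector cells, and than with CP2 by 1.4 and 1.74. ISG15 was higher by 1.39 (interval 0.88 to 1.89) and 1.54 (1.03 to 2.05) in USP18-vector cells, while in empty-vector cells the differences were 0.02 (-0.49 to 0.54) and 0.15 (-0.37 to 0.67). USP18 was higher by 0.87 and 0.69 in USP18-vector cells, and UBE2L6 lower by -0.28 (adjusted p 0.00071) and -0.3 (adjusted p 0.00029). In those cells 4 of 9 members exceeded 1 on the log2 scale for CP14 minus CP18 and 2 of 9 for CP14 minus CP2. The largest difference from CP18 there was UBA7 at -1.87 (adjusted p 0.0046 by edgeR), which rests on few reads. USP41 was higher by 1.09 than with CP18 and by 0.88 than with CP2. CP18 and CP2 at 5 µM differed in 0.0713% of genes and 0 members by edgeR in empty-vector cells (1 unadjusted, 0 by DESeq2), and in 0.0891% of genes and 1 member in USP18-vector cells, USP18 at -0.18 (adjusted p 0.02). That call did not pass without any 1 of 5 of the 6 libraries, its adjusted p then lying between 0.058 and 0.32. Between CP18 and CP2, the 12 genes passing in empty-vector cells became 191 with no filter and 1 with the groups compared alone. The 15 genes passing in USP18-vector cells became 165 and 78.

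**Figure D5:**
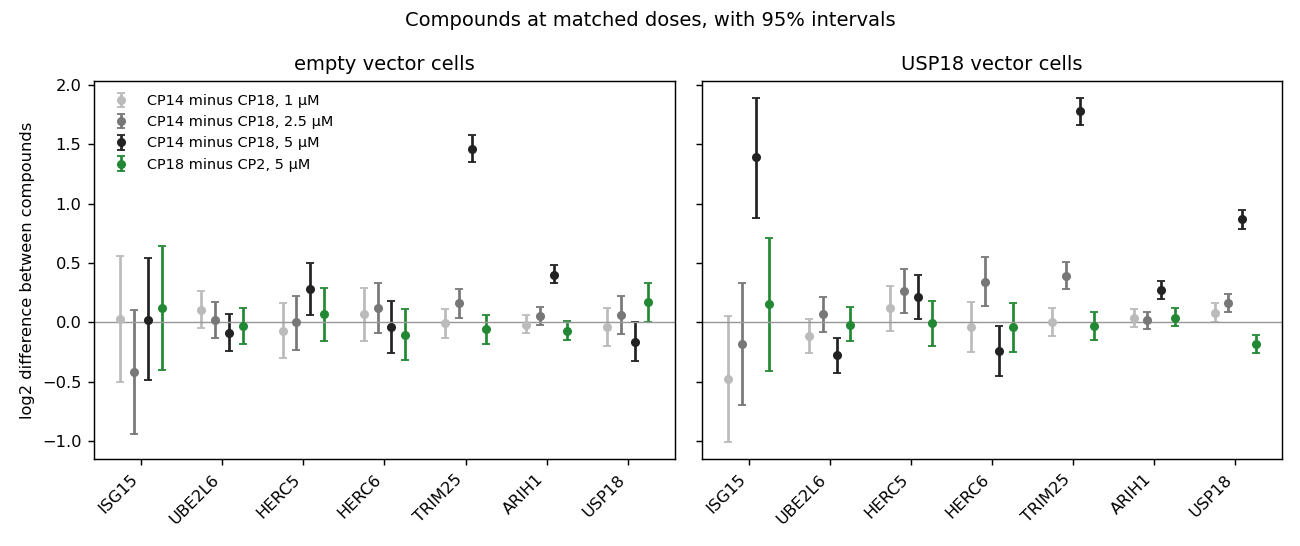
Log2 differences between compounds at matched doses with 95% intervals for 7 members, in empty-vector and USP18-vector cells. CP14 minus CP18 at 5 µM stands out for TRIM25 (1.46 and 1.78) in both cell types and for ISG15 (1.39) and USP18 (0.87) in USP18-vector cells, and CP18 minus CP2 at 5 µM lies between -0.18 and 0.17.

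Related genes were read from lists. Between vectors with vehicle, of 23 tested among 30 other interferon-stimulated genes, 14 passed, 9 higher and 5 lower (median log2 difference 0.11, all genes -0.01), beside 50.9% of all genes tested. MX1 was among the 9, at 1.69, on low levels of 0.359 CPM in empty-vector and 1.2 CPM in USP18-vector cells. Of 6 other deubiquitinases that can take ISG15, 3 passed, all higher, of 13 E1 and E2 enzymes of other modifiers 8 passed, 4 in each direction, and of 4 other HERC genes 1 passed, higher. The shares of the first 3 lists lie near that of all genes. With 2.5 µM CP14, 11 of the 23 other interferon-stimulated genes passed in USP18-vector cells, 10 higher and OAS1 lower (median 0.25, all genes 0.01), beside 29.5% of all genes, and in empty-vector cells 2 passed, 1 in each direction (median 0.02), beside 13.2%. The interaction at that dose passed for 3 of the 23, OAS1 (-0.48), DTX3L (0.42) and PARP14 (0.25), beside 7.07% of all genes. With 5 µM CP14 they split 8 higher and 7 lower in empty-vector cells (median 0.1, all genes 0) and 8 and 8 in USP18-vector cells (median -0.05, all genes 0.01), near the shares of all genes, 60.7 and 65.7%. Among them IFIT1 changed by -2.73 and -2.19 and OAS1 by -1.21 and -2.05, in empty-vector and USP18-vector cells, while TRIM22 fell by 1.21 and 0.77 and IFIH1 rose by 0.88 and 1.33, without a passing interaction for either. The interaction for OAS1 was -0.84 (adjusted p 5.2e-09), the largest of 3 that passed among the 23, all negative, beside 26.4% of all genes.

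At 5 µM CP14, 4 of the 6 deubiquitinases passed in empty-vector cells and 5 in USP18-vector cells, 9 and 11 of the 13 E1 and E2 enzymes, and 1 and 1 of the 4 HERC genes, beside 60.7 and 65.7% of all genes. USP2 rose by 0.61 and 1.76 and USP5 fell by 0.53 and 1.06, in empty-vector and USP18-vector cells. The interaction was 1.15 for USP2 (adjusted p 0.014), -0.53 for USP5 (adjusted p 1.5e-14) and -0.31 for USP16 (adjusted p 0.00056). It also passed for HERC4 (0.52, adjusted p 3.6e-09) and for 5 E1 and E2 enzymes, UBA2, NAE1, UBE2M, UBE2F and UFC1, all negative (-0.13 to -0.28), beside 26.4% of all genes. Of 8 interferon genes 7 had at most 1 count in any library. IFNE, the exception, was low with vehicle, at 1 CPM in empty-vector and 0.518 CPM in USP18-vector cells. With 5 µM CP14 it rose by 1.56 and 2.94, with an interaction of 1.38 (adjusted p 0.023). The motif was found in 18 of 23 promoters held for the other interferon-stimulated genes and in 0 of 6 for the deubiquitinases. No promoter entry was held for USP18, USP41 or UBA7.

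Marker levels moved with CP14 as well. At 2.5 µM in USP18-vector cells CD68 rose by 0.6 (adjusted p 9.3e-12, interaction 0.56, adjusted p 1.5e-05), KRT19 by 0.6 and ABCA3 by 0.24, and KRT8 fell by 0.33 and KRT18 by 0.18; in empty-vector cells the last 4 passed in the same directions. At 5 µM the summed epithelial markers were 4501 ± 117 CPM in empty-vector and 3124 ± 114 in USP18-vector cells, against 11426 and 7269 with vehicle, sums carried by KRT8 and KRT18. EPCAM changed by -1.52 and -0.84 and CDH1 by -1.21 and -1.33, in empty-vector and USP18-vector cells. KRT19 instead rose in USP18-vector cells, by 0.89 (adjusted p 6e-19), with an interaction of 0.93 (adjusted p 1.2e-07). The summed leukocyte markers, almost all CD68, were 66.8 ± 5.29 and 97.7 ± 2.74 CPM, with PTPRC at no more than 7 counts and CD3E at 0 in every library. The alveolar type 2 sum, mostly ABCA3, rose to 96 and 81.6 CPM from 53.1 and 41.9, the fibroblast sum was 6.7 and 4.11 CPM against 13.7 and 5.08, and the endothelial sum stayed under 0.5 CPM. The part of these shifts in the members' changes was not tested.

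Over the 9 empty-vector groups, where USP18 is not overexpressed, the tested genes whose mean levels tracked USP18 most closely were KIAA1147 (Pearson r 0.96), THAP5 (0.94) and ING1 (0.93), and for ISG15 they were RBM39 (0.93), TOR4A (0.91) and HDAC7 (0.89). These were the highest of 13059 candidates. USP18 itself spanned 0.2 and ISG15 0.31 on the log2 scale there, so the ranking describes small movements.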

How the data were processed

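Expected counts from RSEM, per the labels, were deposited by the authors as 1 table of 58870 genes and 54 libraries, made from reads trimmed with cutadapt 1.18, aligned with STAR 2.7.0f and counted with RSEM 1.3.1. The methods name another RSEM version and a mouse annotation for it, while the gene identifiers are human. The 9 members and the gene lists were chosen with earlier results of these data known. Members were matched by the symbol in the gene identifier, and 94% of values, zeros included, were exactly whole.

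Rounded counts were fitted in edgeR 4.0.16 (R 4.3.3), all 54 libraries and 18 groups in 1 quasi-likelihood model with TMM scaling and filterByExpr (minimum count 10, total 15), which left 16836 genes. The 35 comparisons were adjusted by Benjamini-Hochberg over all genes tested, each comparison on its own, and a gene passed at an adjusted p under 0.05. A member was tested where every group compared had a library above 3 counts, and intervals are 95%. CPM is scaled by the TMM factors. Floors cover counting error only. Tables were prepared with Python 3.11.15 and pandas 2.3.3 and drawn with matplotlib 3.10.9; the pipeline was tested on simulated data.

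Alternatives were RLE scaling, no filter, a stricter filter of 10 counts or more in all libraries, DESeq2 1.42.0, a replicate block, fits of 1 treatment with vehicle in both vectors (12 libraries) or of the groups compared alone, USP18 and USP41 counts added, and leaving out each library. Replicate numbers were not used as pairs, since 0 of 27 comparisons had same-number libraries correlating over 0.1 throughout and 20 of 81 libraries matched best with their own number. The replicate chi-square per gene ran from 1.8 to 11.13 over 54 library pairs. Named genes outside the members are list genes past an absolute log2 change of 1 or the most abundant of a list, and the 3 most alike in pattern. OAS1 and MX1 fall under the first. DTX3L, PARP14, USP16, HERC4 and the E1 and E2 enzymes were named after their values were seen. Positions came from GENCODE 44 and promoters from RefSeq. CP2 at 2 µM has no matched dose and was left out of comparisons between compounds. No protein sequence was used.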

Additional observations from a re-analysis of the deposited data

Results flagged for a closer look

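Each of the following differed in response between the 2 cell types by the interaction test, the treatment change in USP18-vector cells minus that in empty-vector cells on the log2 scale. For HERC5 the difference was 0.56 at 1 µM CP14 and 0.72 at 2.5 µM. For TRIM25 it was 0.33 at 2.5 µM CP14 and 0.57 at 5 µM. ISG15 gave 1.32 and USP18 0.83, both at 5 µM CP14. With 1 µM CP18 the difference was -0.41 for USP18 and 0.35 for UBE2L6. The USP18 differences compare changes from vehicle levels of 1307 CPM in USP18-vector and 10.8 CPM in empty-vector cells. Vector-borne and endogenous USP18 reads are not separated in them. The vector and the population carrying it cannot be told apart, and 3 of the 8, HERC5 at 1 µM CP14, TRIM25 at 2.5 µM CP14 and UBE2L6 at 1 µM CP18, did not pass on leaving out at least 1 library.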

How the results depend on the processing

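Under RLE scaling, both filters, the replicate block, DESeq2, the 12-library fits, the groups compared alone and the USP18 and USP41 counts added, the USP18 difference between vectors lay between 6.92 and 6.94, and with the replicate block it was 6.92 with 3, 3, 23, 8 and 28 members passing between vectors, on treatment in empty-vector cells, on treatment in USP18-vector cells, for the interaction and between compounds. Counts of passing members under the other settings were 3 to 4, 3 to 4, 16 to 28, 8 to 10 and 24 to 28, the 16 coming from the filter of 10 counts, which removes USP41 and UBA7. Leaving out 1 library gave 6.9 to 6.94 for USP18 and counts of 3 to 4, 2 to 5, 18 to 25, 6 to 10 and 24 to 29. The count of 5 in empty-vector cells came without replicate 2 of the 5 µM CP14 group, where USP18 (-0.25, adjusted p 0.017) and UBA7 (-2.04, adjusted p 0.023) also passed; the cause was not tested. Of 65 member calls, 0 changed direction in any alternative. RLE lost 0, no filter 5, the stricter filter 1 of 55, DESeq2 1 of 64, the 12-library fits 2 of 36, and the groups alone 7 of 63; 20 were lost on leaving out at least 1 library. The 12-library fits were not run between compounds. TMM and RLE medians over all genes differed by at most 0.01. Depth limits UBA7 and ISG15, at 1 to 13 and 18 to 94 counts per library, and every group holds 3 libraries.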
